A study of Mus musculus with 2 samples.

Results

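Complexes III, IV and V of the mitochondrial inner membrane were followed through their nuclear genes in single cells sorted as cones. The genes were taken from the deposited counts by symbol, as those starting with *Uqcr*, *Cox4* to *Cox8* or *Atp5*, plus *Cyc1*. The rule found 39 of the 17774 genes in the file, and all 39 were among the 15947 genes that remained after those seen in fewer than 3 cells were dropped. Of these, 9 belong to complex III, 14 to complex IV and 15 to complex V, and the last, *Atp5s*, is no subunit of the enzyme and was counted apart.

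The cells were sorted by GFP, and labelled as cones, from C57BL/6 retinae at postnatal day (PN) 24, with 1 cell per well. All mice carried the *Pde6ccpfl1* mutation, which makes cones degenerate, and *Chrnb4.eGFP*, in which the *Chrnb4* promoter drives the fluorescence used for sorting. In 1 library the retinae were untreated (uninjected), and in the other the eyes had received GSK-J4, an inhibitor of Jumonji H3K27 demethylases, by a single intravitreal injection at PN14, given as 10 µM, 10 days before collection. Each condition was 1 library from 1 plate and no vehicle-injected library was compared, so that GSK-J4, the injection and the plate cannot be told apart, no difference has a replicate check and no test was made.

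Complex III passes electrons from ubiquinol to cytochrome c, complex IV passes them from cytochrome c to oxygen, and both pump protons across the inner membrane. Complex V, the ATP synthase, lets the protons flow back through a rotating ring and uses the turning to make ATP. Most subunits are encoded in the nucleus and imported, while a few core ones are made inside mitochondria. Photoreceptors pack their inner segments with mitochondria and use much ATP to pump ions and to renew the outer segment.

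The filter of the methods kept 82 uninjected cells with 1113424 counts (median 8118 per cell, range 860 to 98250) and 64 GSK-J4-treated cells with 208578 counts (median 2336, range 420 to 15371). The study names the same number of uninjected cells as the file holds before this filter, and more GSK-J4-treated cells than the file used here holds, so the cells kept here are not the same set as in the study. Against its label, the library labelled GSK-J4-treated held few cone transcripts. A count of any of 11 cone marker genes was found in 82 of 82 uninjected cells and in 14 of 64 GSK-J4-treated cells. The cone markers together made up 2.59% of the counts in the uninjected library and 0.213% in the GSK-J4-treated one, and *Opn1sw*, *Gngt2*, *Cngb3*, *Pde6c* and *Guca1a* were at 0 there. Rod markers took 0.344% and 0.0129%, and Müller glia markers 0.0923% and 0.0340%. Olfactory and vomeronasal receptor genes, 510 genes that the retina should keep silent, averaged 0.124 counts per gene and 10000 counts in the uninjected library and 0.289 in the GSK-J4-treated one. Their part in the differences below was not tested. Results are therefore also given for the 14 GSK-J4-treated cells with a cone marker count. The highest cone marker shares among these were 6.74%, 3.29%, 0.439% and 0.175% of a cell's counts. The lowest share in an uninjected cell was 0.358%, so a cone marker count alone does not mark a cell as a cone. The libraries shared no cell name, although 54 well positions held a kept cell on both plates.

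The nuclear genes of all 3 complexes were lower in the library labelled GSK-J4-treated. Complex IV differed most, from 10592 counts (0.951% of all counts, 95% interval 0.933 to 0.970%) to 52 (0.0249%, 0.0186 to 0.0327%), a share 38.2-fold lower (29.1 to 51.1). Complex V went from 6106 counts (0.548%, 0.535 to 0.562%) to 84 (0.0403%, 0.0321 to 0.0499%), 13.6-fold lower (11 to 17.1). Complex III went from 4281 counts (0.384%, 0.373 to 0.396%) to 79 (0.0379%, 0.0300 to 0.0472%), 10.2-fold lower (8.13 to 12.8). All intervals cover counting error only, not differences between cells, animals or plates. They take counts as independent, although many sat together in single cells, so the true uncertainty is larger.

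The size of the complex IV difference depended on 1 cell. Without the cell with the most counts of these genes in each library, complex IV was 94.7-fold lower, complex V 16.3-fold and complex III 9.48-fold. When only the 14 GSK-J4-treated cells with a cone marker count were used, complex IV was 329-fold, complex III 20.5-fold and complex V 10.8-fold lower. These folds rest on 2, 13 and 35 counts in those cells, and 18 of the 35 were *Atp5f1* counts of 1 cell. The complex IV share there was 0.00289% (0.000350 to 0.0104%), so the size of its fold is poorly known. The order of complexes III and V was thus not stable, while complex IV differed most in each of these settings.

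The shares in single cells overlapped between the libraries for all 3 complexes, least for complex IV. Complex IV took between 0.133% and 5.2% of the counts of an uninjected cell (median 0.775%), and at most 0.706% in a GSK-J4-treated cell (median 0). Complex V took between 0.0724% and 3.22% (median 0.429%) and at most 1.70% (median 0). Complex III took between 0.0419% and 2.20% (median 0.289%) and at most 1.76% (median 0). A count of complex III was found in 28 GSK-J4-treated cells, of complex V in 22 and of complex IV in 8, whereas each of the 82 uninjected cells had counts of all 3. At or above the lowest uninjected cell lay 13 of the 64 GSK-J4-treated cells for complex III, 5 for complex V and 2 for complex IV. Above the uninjected median lay 1 cell for complex III, 1 for complex V and 0 for complex IV. The overlap depends on depth, since 1 count in a shallow cell can pass the lowest uninjected share. In a GSK-J4-treated cell of 454 counts, 1 count gave complex III 0.220%.

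**Figure D1:**
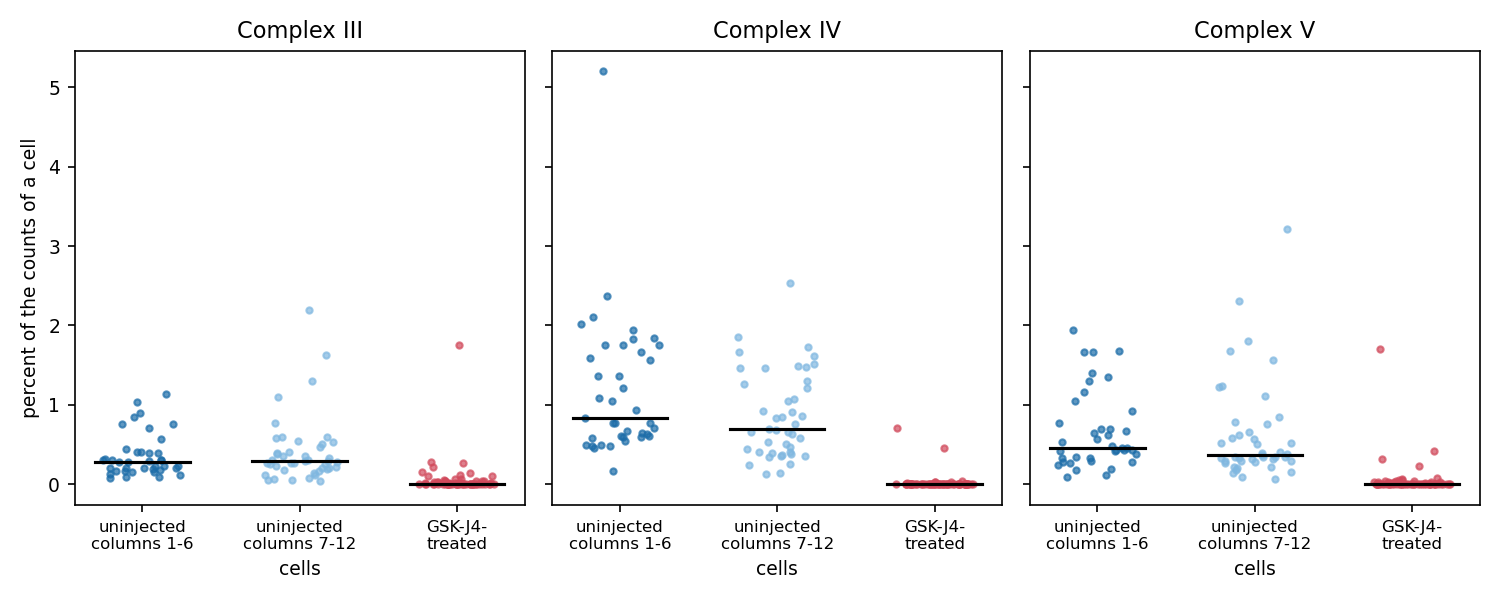
Percent of each cell's counts on complex III, IV and V genes, with 1 point per cell and a black line at the median, for both plate sides of the uninjected library and for GSK-J4-treated cells. The median of GSK-J4-treated cells lies at 0 for each complex, while 13, 2 and 5 of the 64 cells reach the uninjected range for complexes III, IV and V, up to 1.76% for complex III. In shallow cells 1 count can be enough to reach it.

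Gene by gene, differences were described by the log-fold, the natural log of the mean count per 10000 plus 1 in GSK-J4-treated cells minus that in uninjected cells, with a threshold of 0.3. Of the 39 genes, 35 were lower beyond it, 0 were higher and 4 lay within it. Of all 7682 genes found in 10% or more of the cells of one of the libraries, 24% were lower and 20.4% higher beyond the threshold. The median log-fold was -1.28 over the 39 genes and -0.00 over all of these genes. Of the 39 genes, only *Uqcrh* (39.1%) and *Atp5s* (15.6%) were found in 10% or more of GSK-J4-treated cells. The others that passed did so through the uninjected library, where they are high. The median uninjected mean per 10000 was 3.21 over the 39 genes and 0.362 over all genes. Adding 1 limits how far low genes can fall, so the shares over all genes are not matched for level. By complex, 8 of 9 genes of complex III were lower (median -1.12), 12 of 14 of complex IV (median -1.62) and 15 of 15 of complex V (median -1.13). The 4 genes within the threshold were *Uqcrc2*, *Cox7a1*, *Cox6a2* and *Atp5s*, of which *Cox7a1* and *Cox6a2* did not reach the 10% of cells, so that 37 of 39 did.

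**Figure D2:**
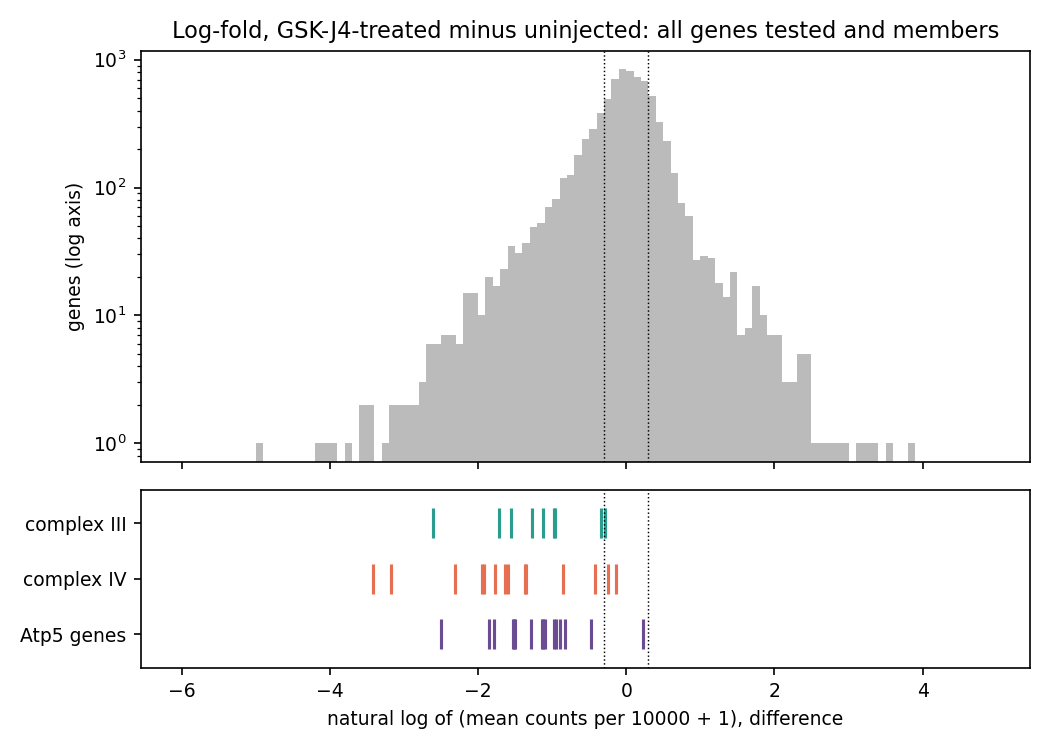
Log-fold of GSK-J4-treated minus uninjected cells (horizontal axis, natural log), as a histogram of all 7682 genes with a logarithmic gene count, above a tick for each complex III, complex IV and *Atp5* gene, with dotted lines at the threshold of 0.3. The ticks lie between -3.41 and 0.22, and 35 of the 39 are left of the lower line.

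Complex III is built around 2 core proteins, *Uqcrc1* and *Uqcrc2*, and 2 subunits that carry redox centres, *Cyc1* with a haem and *Uqcrfs1*, the Rieske protein, with an iron-sulfur cluster. Both redox subunits had no count in GSK-J4-treated cells. *Uqcrfs1* had 315 counts (281 to 352) in 35 uninjected cells and *Cyc1* 214 (186 to 245) in 39, shares at least 19.7-fold and 13.4-fold lower in GSK-J4-treated cells when their 0 is set to a floor of 3 counts over the library. *Uqcrc1* had 180 counts in 52 uninjected cells and 1 count in GSK-J4-treated cells, a ratio of 33.7 (5.98 to 1339). *Uqcrc2* was sparse, with 79 counts (62.5 to 98.5) in 21 uninjected cells and 7 (2.81 to 14.4) in 3 GSK-J4-treated cells, and the interval of its ratio, 2.11 (0.980 to 5.43), includes 1.

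Among the 5 small subunits of complex III, *Uqcr10*, *Uqcr11* and *Uqcrb* had no count in GSK-J4-treated cells. *Uqcr10*, a short membrane subunit, had 1142 counts in 66 uninjected cells and was at least 71.3-fold lower. *Uqcr11* had 617 counts (at least 38.5-fold lower) and *Uqcrb*, which lies near the quinone-binding site, had 300 (at least 18.7-fold lower). *Uqcrq* had 508 counts in 76 uninjected cells and 2 in GSK-J4-treated cells, a ratio of 47.6 (13.1 to 394).

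*Uqcrh*, the acidic hinge protein next to cytochrome c1, was the exception among the small subunits. It lies on GRCm38 at chr4:116066965-116075071, on the minus strand, and overlaps the annotated gene *Gm12854*. It had 926 counts (867 to 988) in 68 uninjected cells and 69 (53.7 to 87.3) in 25 GSK-J4-treated cells, the most counts and the most cells of any of the 39 genes in that library. Its share was 2.51-fold lower (1.97 to 3.26) and its log-fold was -0.34, close to the threshold. In 19 of the 25 cells it had a single count. The log-fold lay within the threshold over columns 1 to 6 (-0.09) and without the cell with the most counts of the 39 genes in each library (-0.25), but was -0.88 over columns 7 to 12 and -0.98 after thinning each cell to equal depth.

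Complex IV was at the top of the uninjected levels and had the most genes without a count in GSK-J4-treated cells, 9 of 14. In complexes III and V it was 5 of 9 and 3 of 15. The share of all genes without a count in that shallower library was not computed. *Cox5b*, a zinc-binding subunit at chr1:36691449-36693681 on the plus strand, had 2906 counts (2801 to 3014) in 80 uninjected cells and 0 in GSK-J4-treated cells, with a log-fold of -3.41. *Cox6c*, at chr15:35925886-35938246 on the minus strand and inside the span of *Vps13b*, had 2711 counts (2609.9 to 2815) in 77 cells and 0. A finding in 0 of 64 cells allows a share of cells with a count of up to 4.69% by a floor of 3 cells, or 5.60% as the upper Clopper-Pearson limit.

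Other complex IV genes without a count in GSK-J4-treated cells were *Cox6b1*, which faces the intermembrane space (1013 counts in uninjected cells, at least 63.3-fold lower), *Cox7a2l*, known for joining complexes III and IV (734, at least 45.8-fold), *Cox7c* (512, at least 32-fold) and *Cox5a* (187, at least 11.7-fold). *Cox4i1*, the large subunit through which ATP is thought to slow the enzyme, had 557 counts in 78 uninjected cells and 1 in GSK-J4-treated cells, a ratio of 104 (18.7 to 4129). *Cox6a1* had 240 and 1 counts, a ratio of 45.0 (7.99 to 1783), and *Cox7a2* had 412 and 2, a ratio of 38.6 (10.6 to 319.7).

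*Cox8a* and *Cox7b* kept some counts, and these sat in single cells. *Cox8a*, the smallest subunit, was the only one of the 39 genes with a count in each of the 82 uninjected cells (859 counts), and its 32 counts in the GSK-J4-treated library came from 1 cell. *Cox7b* had 374 counts in 59 uninjected cells and 16 in 5 GSK-J4-treated cells, of which 12 came from 1 cell. Their shares were 5.03-fold (3.54 to 7.40) and 4.38-fold (2.66 to 7.74) lower.

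Several complex IV subunits have tissue forms. The muscle forms *Cox6a2* and *Cox7a1* had 16 counts in 5 and 19 counts in 7 uninjected cells, and the testis form *Cox6b2* had 52 counts in 14. None of the 3 had a count in GSK-J4-treated cells, and at its depth a difference was not detectable for *Cox6a2*, whose uninjected share was 0.999 times that of the floor of 3 counts, and *Cox7a1* was at least 1.19-fold lower. The common forms *Cox6a1*, *Cox7a2* and *Cox6b1* had 240, 412 and 1013 counts in the same uninjected cells. *Cox4i2*, *Cox7b2*, *Cox8b* and *Cox8c* have no row in the counts and were not analysed here.

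In complex V, the F1 head makes ATP on *Atp5a1* and *Atp5b*, the alpha and beta subunits, around a shaft of *Atp5c1*, *Atp5d* and *Atp5e*. *Atp5a1* had 356 counts in 42 uninjected cells and 0 in GSK-J4-treated cells, at least 22.2-fold lower. *Atp5b* had 804 counts in 73 cells and 18 in 4 cells, 15 of them in 1 cell, 8.37-fold lower (5.26 to 14.2). The shaft genes *Atp5c1*, *Atp5d* and *Atp5e* had 168, 237 and 201 uninjected counts and 1, 4 and 2 GSK-J4-treated counts. The *Atp5d* counts lay in 4 different cells, and its share was 11.1-fold lower (4.28 to 41.1).

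*Atp5g1*, *Atp5g2* and *Atp5g3* encode the same mature protein of the rotating c ring from different precursors. *Atp5g1* was the main source in uninjected cells, with 565 counts in 71 cells, against 159 in 35 for *Atp5g2* and 67 in 34 for *Atp5g3*. In GSK-J4-treated cells they had 20, 2 and 1 counts, and 17 of the 20 counts of *Atp5g1* came from the cell that held all *Cox8a* counts. The c-ring genes together were 6.44-fold lower (4.26 to 10.2).

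The peripheral stalk holds the head still against the turning ring. Its genes *Atp5f1*, *Atp5h*, *Atp5j* and *Atp5o.1* had 1538 counts together in uninjected cells and 34 in GSK-J4-treated cells, 8.47-fold lower (6.04 to 12.3). *Atp5o.1*, the oligomycin-sensitivity protein, had 458 and 0 counts (at least 28.6-fold lower). *Atp5h* had 441 counts and 13 in 6 cells, *Atp5j* 406 and 3, and *Atp5f1* 233 and 18, all 18 in 1 cell. Over columns 1 to 6, where that cell lay, the log-fold of *Atp5f1* was -0.22, against -1.12 over both sides. GENCODE M21 holds overlapping genes under the symbol *Atp5o*, so no position is given for *Atp5o.1*.

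The membrane subunits that join ATP synthases into dimers, *Atp5j2*, *Atp5k* and *Atp5l*, were the lowest group of complex V in GSK-J4-treated cells. Together they had 2011 counts and 2, a ratio of 188 (52.1 to 1556). *Atp5j2* had 1338 counts in 71 uninjected cells and 0, at least 83.5-fold lower with a log-fold of -2.50. *Atp5k* had 542 counts in 79 cells and 1, and *Atp5l* had 131 in 52 cells and 1.

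*Atp5s*, named *Dmac2l* in RefSeq, shares the symbol but is no part of the ATP synthase. It had 60 counts (45.8 to 77.2) in 15 uninjected cells and 20 (12.2 to 30.9) in 10 GSK-J4-treated cells, 11 of them in 1 cell. Its log-fold of 0.22 was the only one of the 39 above 0, and it was the gene counted as higher under the settings that gave 1. The log-fold was -0.18 over the wells of columns 1 to 6 and -0.01 after thinning to equal depth, so its direction was not stable.

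**Figure D3:**
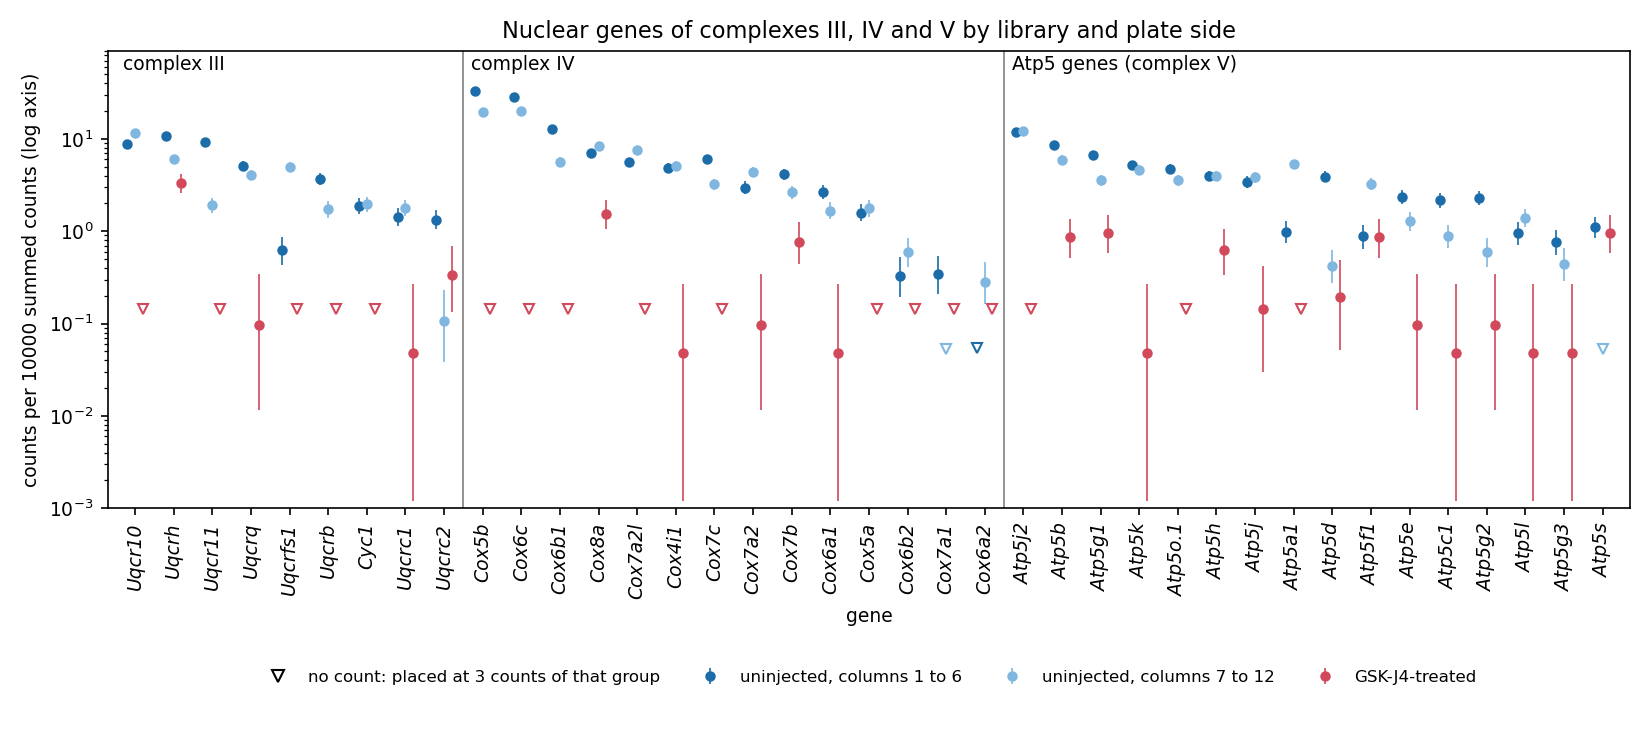
Counts per 10000 summed counts (log axis) of the 39 genes, ordered within each complex by their uninjected counts, for columns 1 to 6 and 7 to 12 of the uninjected plate and for the GSK-J4-treated library, with 95% Poisson intervals. Open triangles mark genes without a count, placed at 3 counts of that group, and 17 genes have one for the GSK-J4-treated library.

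The 39 genes had 21039 counts in uninjected cells (1.89% of all counts) and 235 in GSK-J4-treated cells (0.113%). In the latter 17 genes had no count, 12 had 1 to 3 counts and 10 had more. Also without a count there were 17 of 37 complex I genes and 40 of 84 ribosomal protein genes. For the V-ATPase it was 6 of 18, for complex II 1 of 4 and for the receptor genes that passed the filter 43 of 396. The share over all genes was not computed, and that library was the shallower one. Of the 10 genes with more than 3 counts, 8 had most of their counts in 1 cell, and the others were *Uqcrh* and *Atp5d*. The 5 cells with the most counts held 118 of the 235 (50.2%), and 1 cell held 52, made up mostly of *Cox8a* and *Atp5g1*.

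Per gene, the mean level in the GSK-J4-treated library equalled that of the silent receptor genes. The 39 genes averaged 0.289 counts per gene and 10000 counts there, and the receptor genes 0.289. In the uninjected library these values were 4.85 and 0.124. *Uqcrh* alone made up 29.4% of the counts of the 39 genes in GSK-J4-treated cells and 4.40% in uninjected cells. The mean of the 39 genes includes *Uqcrh*, and of the 510 receptor genes only 396 passed the gene filter that all 39 passed. A count was found there for 22 of the 39 genes and for 410 of the 510 receptor genes (80.4%). These means do not decide whether the counts of a single gene lay above background, which was not tested.

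No more than 5 different genes of the 39 were seen in any GSK-J4-treated cell, against 8 to 38 in each uninjected cell. A count of any of them was present in 39 GSK-J4-treated cells out of 64 (60.9%, interval 47.9 to 72.9%), 8 of which held *Uqcrh* alone. When each cell was thinned to 867 counts, leaving out 1 uninjected and 14 GSK-J4-treated cells, 81 of 81 uninjected cells (median 9 different genes) and 24 of 50 GSK-J4-treated cells (48.0%, 33.7 to 62.6%, median 0) held one. The difference thus remained at equal depth.

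**Figure D4:**
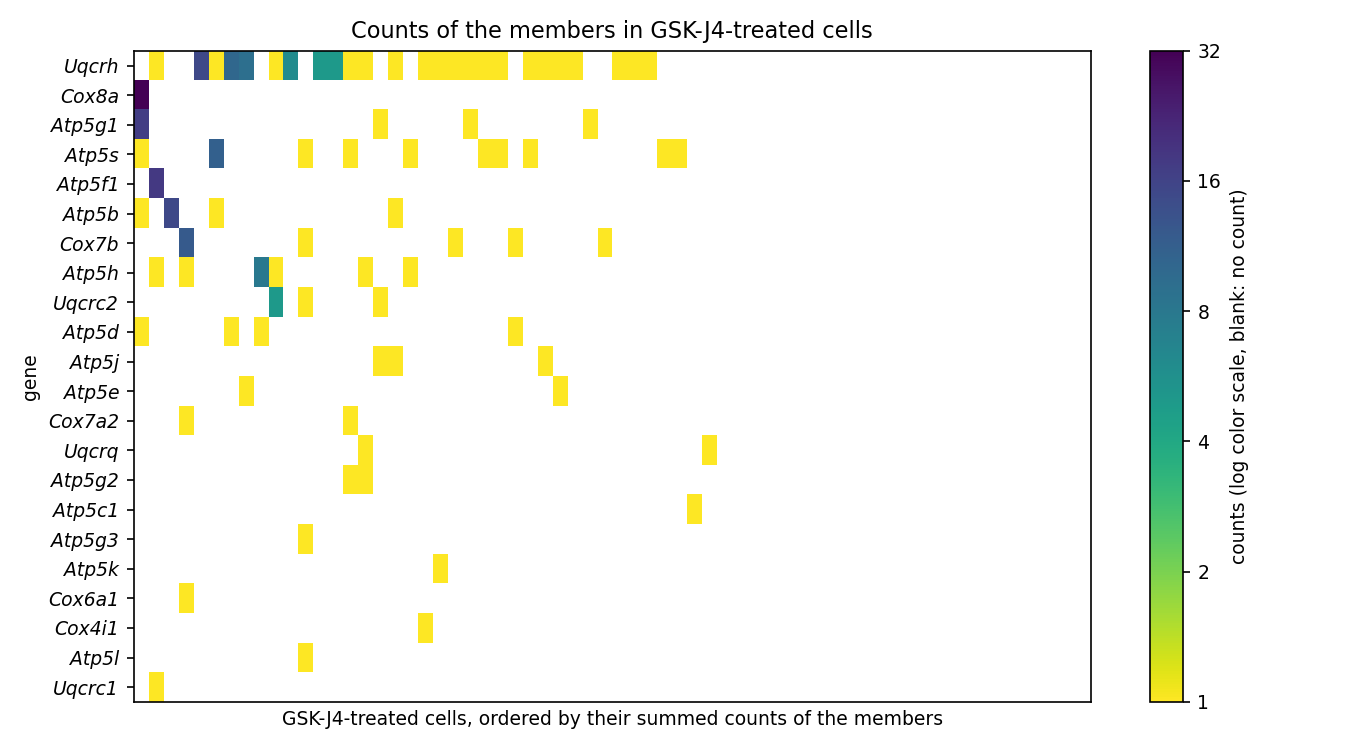
Counts of the 22 genes found in the GSK-J4-treated library (rows) in its 64 cells (columns, ordered by their summed counts of these genes), on a logarithmic color scale with blanks for no count. *Uqcrh* appears in 25 cells, whereas the 32 counts of *Cox8a* and the 18 of *Atp5f1* are each in 1 cell.

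The shares of the GSK-J4-treated cells with and without a cone marker count differed by complex, but rested on few cells. The 39 genes took 0.0795% of the counts of the 14 cells with a cone marker count (55 counts, in 11 cells) and 0.129% in the 50 cells without (180 counts, in 28 cells). Complexes III and IV were lower in the former (0.0188% against 0.0474% and 0.00289% against 0.0359%), while complex V took 0.0506% (0.0352 to 0.0703%) and 0.0352% (0.0260 to 0.0465%). Of the 50 complex IV counts in cells without a cone marker count, 32 were *Cox8a* counts of 1 cell. Of the 35 complex V counts in cells with one, 18 were *Atp5f1* counts of 1 cell. Complex III was found in 7 of 14 cells with and 21 of 50 without. Complex IV was found in 2 and 6 of these, and complex V in 6 and 16. By cells with a count, complexes III and IV were thus not lower in the former. Of the cells with a cone marker count 78.6% (49.2 to 95.3%) held one of the 39 genes, and of those without 56.0% (41.3 to 70.0%). By plate side they took 0.109% (0.0880 to 0.133%) in columns 1 to 6 and 0.116% (0.0972 to 0.137%) in columns 7 to 12 of the GSK-J4-treated plate. The low level was thus present on both sides of the plate.

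The subunits made inside mitochondria were lower too, and how far depended on the measure. The 6 mitochondrial genes of these complexes made up 0.487% of the counts in uninjected cells and 0.1% in GSK-J4-treated cells, 4.86-fold lower (4.23 to 5.61), a smaller ratio than that of the nuclear genes. By the log-fold all 6 were lower, with a median of -1.67, below the medians of the 3 complexes. *mt-Cytb*, the cytochrome b of complex III, had 1386 counts in 82 uninjected cells and 108 in 4 GSK-J4-treated cells, 2.40-fold lower (1.98 to 2.95). *mt-Co1*, the catalytic subunit of complex IV, had 1233 and 42 counts, and *mt-Atp6*, the proton channel of complex V, had 1111 and 4, 52.0-fold lower (20.3 to 191). The filter removes cells with over 5% mitochondrial counts, so it limits how high these genes can be.

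Assembly factors and partners of the complexes were listed as 38 genes, of which 28 have a row. Of these, 14 were lower beyond the threshold, 1 was higher and 13 lay within it, with a median log-fold of -0.32, against 24% lower over all genes. *Ndufa4*, now placed in complex IV, had 1764 counts in 73 uninjected cells and 0 in GSK-J4-treated cells. *Coa3* and *Cox14*, which bind newly made *mt-Co1* protein, had 573 and 388 counts and 0 in GSK-J4-treated cells. *Usmg5*, which holds ATP synthase dimers together, had 599 counts and 33 in 2 cells, and *Atpif1*, the inhibitor of the enzyme, had 166 and 3. *Cycs*, the cytochrome c that links complexes III and IV, had 117 counts in 41 uninjected cells and 1. The gene counted as higher was *Uqcc1*, an assembly factor of complex III, with 37 and 26 counts (log-fold 0.44).

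Other families differed by amounts on both sides of these. Nuclear complex I genes took 1.68% and 0.0623% of the counts, 27.0-fold lower (22.7 to 32.4). This list was taken by symbol and holds *Ndufa4*, without which, a choice made after the data were seen, the ratio was 24.5 (20.6 to 29.3). Complex IV, which was taken without *Ndufa4*, overlapped both intervals at 38.2 (29.1 to 51.1), the second one barely. Its ratio with *Ndufa4* added was not computed. The share of cytosolic ribosomal proteins was 3.66% and 0.236%, 15.5-fold lower (14.2 to 17). The V-ATPase, a proton pump of other membranes, was 7.08-fold lower (5.75 to 8.81), and complex II 3.04-fold lower (1.74 to 5.81). The ratio of complex III lay below that of the ribosomal proteins and the interval of complex V overlapped theirs.

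Within the uninjected library the genes of the 3 complexes differed widely in level. Per 10000 summed counts and kilobase of exon, *Uqcr10* (17.6), *Cox5b* (16.4), *Cox6b1* (12.9) and *Cox8a* (12.5) were the highest, followed by *Uqcr11* (8.65) and *Atp5k* (7.90). *Atp5l* (0.183), *Cox6a2* (0.211), *Atp5s* (0.264), *Atp5g3* (0.276) and *Uqcrc2* (0.278) were the lowest. Exon length sums all annotated transcripts and the counts come from transcript ends, so this scale understates genes with long or many transcripts, and *Atp5o.1* is left out for want of a length. The 2 core proteins of complex III, *Uqcrc1* (0.391) and *Uqcrc2*, were thus far below its small subunits *Uqcr10* and *Uqcr11* on this scale.

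Across the 82 uninjected cells the shares of the complexes moved together to a moderate degree. Spearman's rho was 0.59 between complexes IV and V, 0.43 between III and IV and 0.31 between III and V. With complex I it was 0.70 for IV, 0.57 for V and 0.55 for III, and with the cone markers 0.50, 0.56 and 0.62 in the same order. With the cytosolic ribosomal proteins it was 0.60 for IV, 0.55 for V and 0.33 for III, so moving together was not particular to the respiratory chain. With the depth of the cell it lay between -0.14 and 0.11. These are descriptions of cells that share 1 library, 1 plate and the total by which the shares are divided.

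The uninjected plate was then compared between its sides, well columns 1 to 6 with 39 cells and 7 to 12 with 43. The labels do not say what differed between the sides, and both are parts of 1 library, so these values have no replicate check. On summed counts complex IV took 1.10% (1.07 to 1.12%) and 0.811% (0.788 to 0.835%), a ratio of columns 7 to 12 over columns 1 to 6 of 0.739 (0.711 to 0.769). Complex V took 0.587% and 0.511%, a ratio of 0.870 (0.827 to 0.915). Complex III took 0.428% and 0.343%, a ratio of 0.802 (0.755 to 0.852).

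The order of the sides did not hold for complex III. As a mean over cells, which weights each cell equally, it took 0.365% in columns 1 to 6 and 0.417% in columns 7 to 12, and after thinning 0.361% and 0.431%. The same means were 1.19% and 0.872% for complex IV and 0.672% and 0.639% for complex V, in the order of the summed counts. Between the same sides the ratio was 1.05 for complex I, 1.08 for the cone markers, 0.763 for the ribosomal proteins, 0.721 for the mitochondrial genes of the complexes, 0.736 for rod markers and 0.614 for Müller glia markers, whose part in the result was not tested.

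By the log-fold between the sides, 15 of the 39 genes were lower in columns 7 to 12 (38.5%) and 9 higher (23.1%), while 15.9% and 14.6% of all 8823 genes were lower and higher. The 39 genes are more abundant than most, and a pseudocount of 1 weighs on low genes: with 0.1, 18 were lower and 11 higher, beside 37.8% and 32.5% of all genes. The median log-fold was -0.08 over the 39 genes and -0.02 over all genes, but it was -0.28 without any filter and 0.01 with at least 500 genes per cell, so it has no stable direction. On counts summed over each side, 4 genes were higher and 17 lower. For 6 genes, *Atp5k*, *Cox6a1*, *Atp5j2*, *Atp5b*, *Uqcrq* and *Atp5j*, the ratio of the summed counts and the log-fold pointed in opposite directions. The interval of the summed ratio lay below 1 for 21 genes, above 1 for 10 and included 1 for 8. These intervals cover counting error only, and the same count was not made over all genes. Whether these numbers are particular to the 39 genes was thus not tested.

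Subunits of 1 complex went in opposite directions between the sides. In complex III, *Uqcrfs1* (chr13:30540308-30545362, minus strand) had 34 counts in 10 cells of columns 1 to 6 and 281 in 25 cells of columns 7 to 12, a ratio of 7.97 (5.57 to 11.7). *Uqcr11* (chr10:80402997-80406830, minus strand) had 509 counts in 27 cells and 108 in 21, a ratio of 0.205 (0.165 to 0.252). With the counts of the highest cell of each side taken off and the side totals kept, the ratios were 13.4 and 0.169. Neither thus rested on the counts of 1 cell.

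In the F1 head, *Atp5a1* had 54 counts in 15 cells of columns 1 to 6 and 302 in 27 cells of columns 7 to 12, a ratio of 5.40 (4.03 to 7.35). *Atp5d* (chr10:80138632-80145818, plus strand, overlapping *Cbarp*) had 213 counts in 33 cells and 24 in 14, a ratio of 0.109 (0.0681 to 0.166). *Atp5c1*, of the same shaft as *Atp5d*, had 118 and 50 counts, a ratio of 0.409 (0.288 to 0.574). In the peripheral stalk *Atp5f1* had 48 counts in 21 cells and 185 in 37, a ratio of 3.72 (2.69 to 5.22), and it overlaps *Wdr77* and *Gm42890*. The F1 head thus held genes of both directions.

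Other genes at either end of the ratio, among those with at least 100 uninjected counts, were *Atp5g2* of the c ring, *Cox6b1*, *Cox7a2* and *Atp5l*. *Atp5g2* had 125 and 34 counts, a ratio of 0.262 (0.174 to 0.386) that was 0.411 with the counts of the highest cell of each side taken off. The c-ring genes together had 531 and 260 counts, a ratio of 0.472 (0.406 to 0.549). *Cox6b1* had 692 and 321 counts, a ratio of 0.448 (0.391 to 0.512), and *Cox7a2* had 162 and 250, a ratio of 1.49 (1.22 to 1.83). *Atp5l* had 52 and 79 counts, a ratio of 1.47 (1.02 to 2.12), but its log-fold of 0.18 was -0.52 after thinning.

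A few sparse genes were counted on 1 side only. *Atp5s* had 60 counts in 15 cells of columns 1 to 6 and 0 in columns 7 to 12, where its share was at least 20.7-fold lower. With the 35 counts of 1 cell taken off, it was at least 8.64-fold lower. *Cox7a1* had 19 counts in columns 1 to 6 and 0 in columns 7 to 12 (at least 6.56-fold lower). *Cox6a2* had 0 and 16 (at least 5.15-fold lower in columns 1 to 6, or 1.61-fold with the 11 counts of 1 cell taken off). The values with the counts of a cell taken off keep the side totals and were added after the data were seen. In columns 7 to 12 *Uqcrc2* had 6 counts against 73 in columns 1 to 6, a ratio of 0.0793 (0.0282 to 0.181). The number of cells with these genes is small, at 5 to 21 over both sides.

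Among the 28 assembly factors and partners with a row, 4 were lower in columns 7 to 12, 6 higher and the others within the threshold, with a median of 0.00. The following were picked for their counts on 1 side. *Surf1*, needed to build complex IV, had 8 counts in columns 1 to 6 and 226 in columns 7 to 12, and *Bcs1l*, which inserts the *Uqcrfs1* protein into complex III, had 0 and 94. *Uqcc3*, an assembly factor of complex III, had 33 and 330. *Pet100*, of complex IV assembly, had 48 and 0. Both *Bcs1l* and *Uqcrfs1* were thus higher in columns 7 to 12. The other listed factors of complex III did not all follow: *Lyrm7* had 22 and 0 counts, *Ttc19* 13 and 8, *Uqcc1* 22 and 15, and *Uqcc2* 83 and 174. A link between *Bcs1l* and *Uqcrfs1* was not tested.

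**Figure D5:**
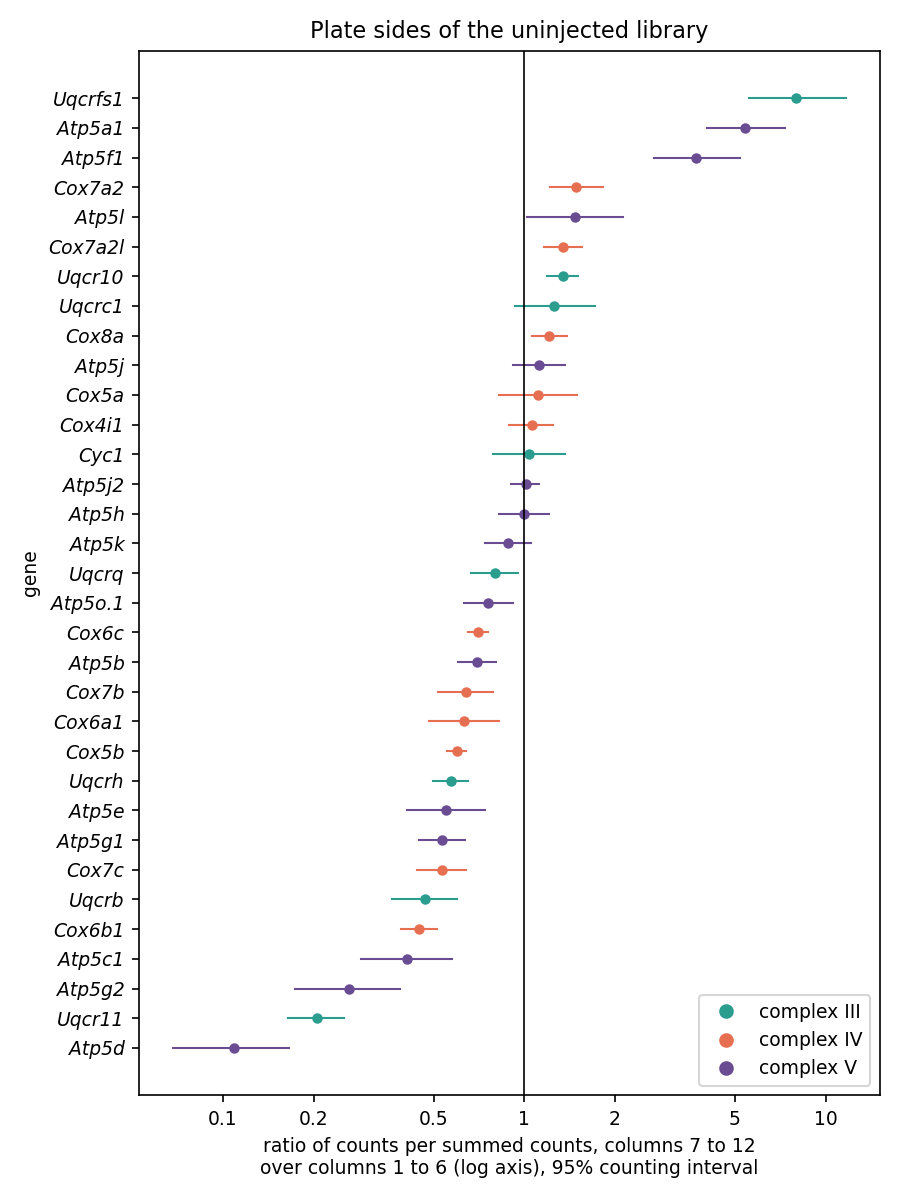
Ratio of counts per summed counts of columns 7 to 12 over columns 1 to 6 of the uninjected library (log axis) for the 33 genes with at least 100 counts, with 95% counting intervals and colors by complex. *Uqcrfs1*, *Atp5a1* and *Atp5f1* lie at 3.72 or above and *Atp5d*, *Uqcr11* and *Atp5g2* at 0.262 or below, with genes of the same complexes between them.

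Promoter sequences from RefSeq (GRCm38.p6), which span 250 bases before the start of the transcript and 50 after it, matched 31 of the 39 genes. Both strands were searched for short cores of motifs known from genes of the respiratory chain. The NRF1 core GCGCATGC was found in 6 of 31 promoters (19.4%) and in 3.94% of all 17492 genes with a promoter. The ETS core CCGGAAG was found in 10 of 31 (32.3%) and in 12.9% of all genes, and the YY1 core AAGATGGC in 3 of 31 (9.68%) and 3.57%. A match gives the letters only, and a promoter without one may hold other versions of these motifs.

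In 2 of the 6 genes with the NRF1 core, *Cox6a1* and *Atp5l*, the core lies before both the RefSeq and the GENCODE start, and these stretches are shown to place it. Counted back from the RefSeq start, that of *Cox6a1* (chr5:115349101-115349130) runs from base 172 to base 143 and that of *Atp5l* (chr9:44920938-44920992) from base 250 to base 196. Both genes lie on the minus strand and are written 5′ to 3′ along it, with the cores of either strand in capitals. In *Cox6a1* the NRF1 core and its reverse overlap, and in *Atp5l* the reverse of the ETS core follows that of the NRF1 core.
Cox6a1: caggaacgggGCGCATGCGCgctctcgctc
Atp5l: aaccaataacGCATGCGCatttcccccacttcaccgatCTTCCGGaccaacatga
Between the plate sides, the summed ratios of these genes pointed in opposite directions, at 0.632 (0.483 to 0.824) for *Cox6a1* and 1.47 for *Atp5l*, while both log-folds were above 0, at 0.45 and 0.18. *Uqcrh*, with the most counts in GSK-J4-treated cells, had an ETS core and no NRF1 core, and *Cox5b*, without a count there, had none of the 3 cores. The reverse was also seen. *Uqcr11*, without a count there, had an NRF1 and an ETS core, and *Atp5g1*, which kept counts, had none. A relation between cores and counts was not tested.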

How the data were processed

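The file the authors deposited holds whole-number counts, 1 row per gene and 1 column per cell, not normalized. According to the labels and methods, reads were demultiplexed, aligned in the CLC Genomics Workbench v.20, freed of PCR duplicates by an 8-nt UMI and mapping coordinates, and counted with featureCounts on Gencode M17, and 3′ and 5′ counts were summed, so that 1 transcript may be counted at both ends. Strand and the handling of reads with several matches are not given in the sources used here, so 12 of the 39 genes that overlap another gene, and genes with processed copies, are uncertain. The build is named GRCh38, a human number, and positions are those of GENCODE M21 on GRCm38. The uninjected columns were assigned by their cell names. In the GSK-J4-treated library the word adult is part of each well name, although its label gives P24.

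Genes seen in fewer than 3 cells were dropped, as were cells under 200 genes or above 5% mitochondrial counts, which left 82 of 85 and 64 of 66 deposited cells. Doublets were not called, as 1 cell was sorted per well, and no batch correction was made. Values were computed in Python 3.11.15 with pandas 2.3.3, numpy 2.4.6 and scipy 1.17.1. Counts were scaled to 10000 per cell, averaged and compared as natural log of the mean plus 1. Shares of summed counts have Clopper-Pearson intervals, counts exact Poisson intervals and ratios exact conditional intervals, all at 95% and for counting error only. A count of 0 was set to a floor of 3 over the library or side for folds given as at least. The calculation was tested on simulated data.

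The genes named were those with at least 100 uninjected counts (33), with a count in at least 2 GSK-J4-treated cells (13), the tissue isoforms, the 5 at each end of the side ratio, and the 3 most counted of each other list. *Atp5s*, *Uqcc1*, *Surf1*, *Pet100*, *Uqcrc2* between the sides and genes named as exceptions were chosen after their values were seen. The genes and lists were chosen with earlier results of these data known. Alternatives were other filters, depths, scalings, pseudocounts, plate sides and cells.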

Additional observations from a re-analysis of the deposited data

How the results depend on the processing

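Each condition was 1 library, and depth limits the values of the GSK-J4-treated library, where most of the 39 genes had 3 counts or fewer. No paired analysis was possible because each group had 1 library and no test was made. No replicate could be left out.

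Of the 390 log-folds of the 39 genes recomputed under 10 settings, 385 kept their direction. The number of genes lower in GSK-J4-treated cells stayed between 33 and 38. The number higher was 1 instead of 0, namely *Atp5s*, without the cell with the most counts, over columns 7 to 12, in cells with a cone marker count and with a pseudocount of 0.1. Median-ratio size factors moved the median of all genes by -0.21 on the log2 scale, so that 34.0% were lower and 8.14% higher instead of 24% and 20.4%, and the median of the 39 genes relative to it was -1.36 (natural log). A pseudocount of 0.1 called 40.9% of all genes lower and 38.2% higher. Between the plate sides, log-folds were recomputed only for the 10 genes at the ends of the side ratio. Of these 70 log-folds, 69 kept their direction. The genes were chosen by their ratios in the same data, so this does not show stability for the 39 genes. Of the 39 genes, 4 instead of 9 were higher with summed counts and with median-ratio size factors.

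Thinning to equal depth gave ratios of the shares of 13.2 for complex III and 9.57 for complex V. The mean over cells gave 6.75 for complex III. For complex IV the ratio was 94.7 without the cell with the most counts, 64.6 over columns 1 to 6 and 26.3 over columns 7 to 12. In cells with a cone marker count the ratios were 20.5, 329 and 10.8 for complexes III, IV and V. The GSK-J4-treated shares behind them were 0.0188%, 0.00289% and 0.0506%, from 13, 2 and 35 counts.

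In uninjected cells, the shares of complexes III, IV and V were 0.397%, 1.02% and 0.662% after thinning, 0.367%, 0.928% and 0.518% without the cell with the most counts, 0.428%, 1.10% and 0.587% over columns 1 to 6, and 0.343%, 0.811% and 0.511% over columns 7 to 12. As a mean over cells complexes IV and V took 1.02% and 0.654%, and complex V took 0.573% without any filter. In GSK-J4-treated cells complexes IV and V took 0.0346% and 0.0692% after thinning and 0.00980% and 0.0319% without the cell with the most counts. Complex IV took 0.0170% over columns 1 to 6, and as a mean over cells complexes III and V took 0.0581% and 0.0508%.

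On columns 1 to 6 of the uninjected plate, complexes III and V took 0.361% and 0.725% after thinning, complexes III, IV and V took 0.393%, 1.06% and 0.526% without the top cell and 0.365%, 1.19% and 0.672% as a mean over cells, and complex V took 0.636% without any filter. On columns 7 to 12 they took 0.431%, 0.928% and 0.604% after thinning, 0.373%, 0.858% and 0.547% without the top cell, and 0.417%, 0.872% and 0.639% as a mean over cells. The median number of genes found per cell at the 25th percentile of depth was 14 for uninjected and 1 for GSK-J4-treated cells, and with all counts 26.0 and 1. The cause of these differences was not tested.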
